A study of Mus musculus with 14 samples.

Results

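The unfolded protein response and the integrated stress response were followed in mouse colon through 35 genes, of which 34 were measured. The genes were listed by name, and the probes carrying an accession of each gene were taken. Where a gene had several probes, the 1 with the highest mean signal over all arrays stood for it. Together 54 probes matched, and the 34 genes were read against all 29523 tested probes, of which 22993 carried a symbol and covered 15540 genes. The level of Pdia3 is not analysed here. The members were read as 4 lists, made of 14 chaperones and folding factors of the endoplasmic reticulum (ER), 6 sensors and transcription factors, 7 genes of ER-associated degradation (ERAD) and translocation, and 7 genes of the ATF4-CHOP arm.

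Whole-colon RNA of female C57BL/6 mice aged 4-6 months was hybridised to 14 Agilent 1-colour arrays. All mice carried loxP-flanked alleles of Nr3c1, the gene of the glucocorticoid receptor (GR). Flox mice served as controls and GR iKO mice also carried Villin-cre, which acts in intestinal epithelium and leaves the receptor in the other cells of the colon. In each genotype, mice were given regular water or 2.5% dextran sulfate sodium (DSS) for 7 days, a polymer that damages the lining of the colon, giving 4 Flox water, 3 Flox DSS, 4 GR iKO water and 3 GR iKO DSS arrays.

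The ER folds secreted and membrane proteins, and an excess of unfolded protein there is sensed by IRE1, PERK and ATF6. IRE1 splices the Xbp1 message, ATF6 is cleaved to an active factor, and both raise chaperones and degradation genes. PERK phosphorylates eIF2α, as do kinases that sense amino acid lack, double-stranded RNA and heme lack. General translation then falls while ATF4 is made, and ATF4 with CHOP raises genes of amino acid supply and of feedback on eIF2α. This second pathway is the integrated stress response, so chaperones and ATF4-CHOP targets report on overlapping but separate inputs. In the colon, goblet cells and plasma cells carry the heaviest secretory load. These arrays measure message levels and do not show splicing of Xbp1, cleavage of ATF6 or phosphorylation of eIF2α.

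A level below is the log2 processed signal minus the 75th percentile of that array, so a level of 0 is that percentile, and a difference of 1 is 2-fold. That percentile lay between 262 and 1003 intensity units and was lowest on Flox DSS replicate 4, and the share of probes well above background ran from 62.6% to 71.3%. The 34 probes that stood for the members were above that limit on all 14 arrays. The spread was larger on DSS arrays for 82.9% of probes. Nr3c1 in GR iKO colons was at 57.3% of Flox on water (adjusted p = 0.00911, limma) and at 56.1% on DSS (adjusted p = 0.0922), in whole tissue whose other cells keep the gene. In bulk RNA, fewer cells of a type and less RNA per cell cannot be told apart. Each group had its own position on the slides, so array position and group cannot be told apart.

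The direction of a change depends on what the arrays are scaled to. On the 75th percentile scale the median of all probes moved by −0.09 with DSS in Flox and by −0.02 in GR iKO. On the scale of 8 E1A spike-in probes, it moved by −2.44 and −0.98. Changes below are therefore relative to the rest of the same array, and the spike-in value is given where a call turns.

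The promoters of the members were searched for known stress elements. Sequence windows of RefSeq starts on GRCm38.p6, running from 250 bases before to 50 bases after the start, were found for 29 of the 35 genes. Atf6, Creb3l1, Derl1, Ern2, Hyou1 and Manf had no window in the table. The ER stress element (ERSE), searched on both strands as CCAAT and CCACG with 9 bases of any kind between them, is the known site of ATF6 with NF-Y. It was found in 7 of the 13 chaperones with a window, a count that includes Pdia3, and in 2 of 6 ERAD genes, against 39 of 32851 windows (0.119%) in all. None of the 7 ATF4-CHOP genes held an exact match, and inexact forms were not searched. The lines below give the matches in gene orientation, 5′ to 3′, with the element in capitals. Elements that start with CGTGG are matches on the opposite strand.
Hspa5: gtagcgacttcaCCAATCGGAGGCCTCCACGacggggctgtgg
Hsp90b1, upstream match: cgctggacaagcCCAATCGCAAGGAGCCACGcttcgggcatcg
Hsp90b1, downstream match: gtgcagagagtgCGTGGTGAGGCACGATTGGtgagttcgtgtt
Calr: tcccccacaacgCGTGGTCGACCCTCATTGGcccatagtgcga
Canx: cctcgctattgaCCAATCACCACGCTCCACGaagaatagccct
Creld2: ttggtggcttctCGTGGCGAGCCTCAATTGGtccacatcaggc
Dnajc3: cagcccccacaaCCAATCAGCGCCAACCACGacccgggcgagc
Pdia6: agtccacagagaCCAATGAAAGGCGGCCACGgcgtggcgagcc
Derl3: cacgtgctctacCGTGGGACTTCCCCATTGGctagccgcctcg
Syvn1: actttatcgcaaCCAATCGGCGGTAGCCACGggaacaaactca

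The Hspa5 stretch lies at chr2:34772013-34772055 on the plus strand, with its element starting 65 bases before the gene start. Hsp90b1 was the only member with a pair of matches, at chr10:86705626-86705668 and chr10:86705521-86705563 on the minus strand, starting 212 and 107 bases before the start. Calr lies at chr8:84847063-84847105 (minus strand), Canx at chr11:50325788-50325830 (minus), Creld2 at chr15:88819508-88819550 (plus) and Dnajc3 at chr14:118937815-118937857 (plus). Pdia6 lies at chr12:17266479-17266521, Derl3 at chr10:75893230-75893272 and Syvn1 at chr19:6046520-6046562, all on the plus strand. The elements start between 44 and 212 bases before the gene starts, in the promoter region.

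The core of the CHOP-ATF4 composite element (CARE), TTGCATCA on either strand, was found in Chac1 and Herpud1, against 294 of all windows (0.895%). It is shown because Chac1 had the largest change with DSS in GR iKO of the ATF4-CHOP list. The ATF6 and XBP1 element UPRE, TGACGTGG on either strand, was in 222 of all windows (0.676%) and in none of the member windows. These matches are descriptions of letters in 1 window per gene.
Chac1: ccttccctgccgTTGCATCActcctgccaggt
Herpud1: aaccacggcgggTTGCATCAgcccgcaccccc

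Both run on the plus strand, Chac1 at chr2:119351037-119351068 with the core 193 bases before the start and Herpud1 at chr8:94386305-94386336 with the core 112 bases before it.

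To ask whether DSS colitis moved these pathways, DSS and water colons were compared within each genotype. Most chaperone messages did not pass the test, and 3 of the 7 ATF4-CHOP genes rose in each genotype. Ern2 and Creb3l1 fell between 4.84-fold and 10.2-fold. In Flox mice 8 of 34 members (23.5%) were called at an adjusted p under 0.05, 5 higher and 3 lower, where 47.2% of all tested probes were called (21.8% higher and 25.4% lower). In GR iKO mice 7 of 34 (20.6%) were called, 5 higher and 2 lower, where 38.8% of all probes were called (19.0% higher and 19.7% lower). Both shares of members lay below those of all probes, a difference that was not tested. The water and DSS groups of 8 members did not overlap in Flox and of 9 in GR iKO, where those of 57.4% and 46.3% of all probes did not. Ern2, Creb3l1, Hyou1, Trib3 and Ppp1r15a were called in both genotypes, 10 members in at least 1 and 24 in neither. Of the members not called in either genotype, 21 had 95% confidence intervals of their changes inside 2-fold in both genotypes. On each of the 3 slides with a water and a DSS array of a genotype, every called change kept its direction.

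Without Flox DSS replicate 1 the Flox count was 3, and without Flox DSS replicate 2 it was 5. A weight for each array gave 16, 7 higher and 9 lower, where 8271 of all 29523 probes were called higher and 10956 lower. Under spike-in scaling the Flox count was 32, all lower, and the GR iKO count 8, all lower. On that scale 25132 of all probes were called lower and 211 higher in Flox, and 12591 lower and 739 higher in GR iKO.

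**Figure D1:**
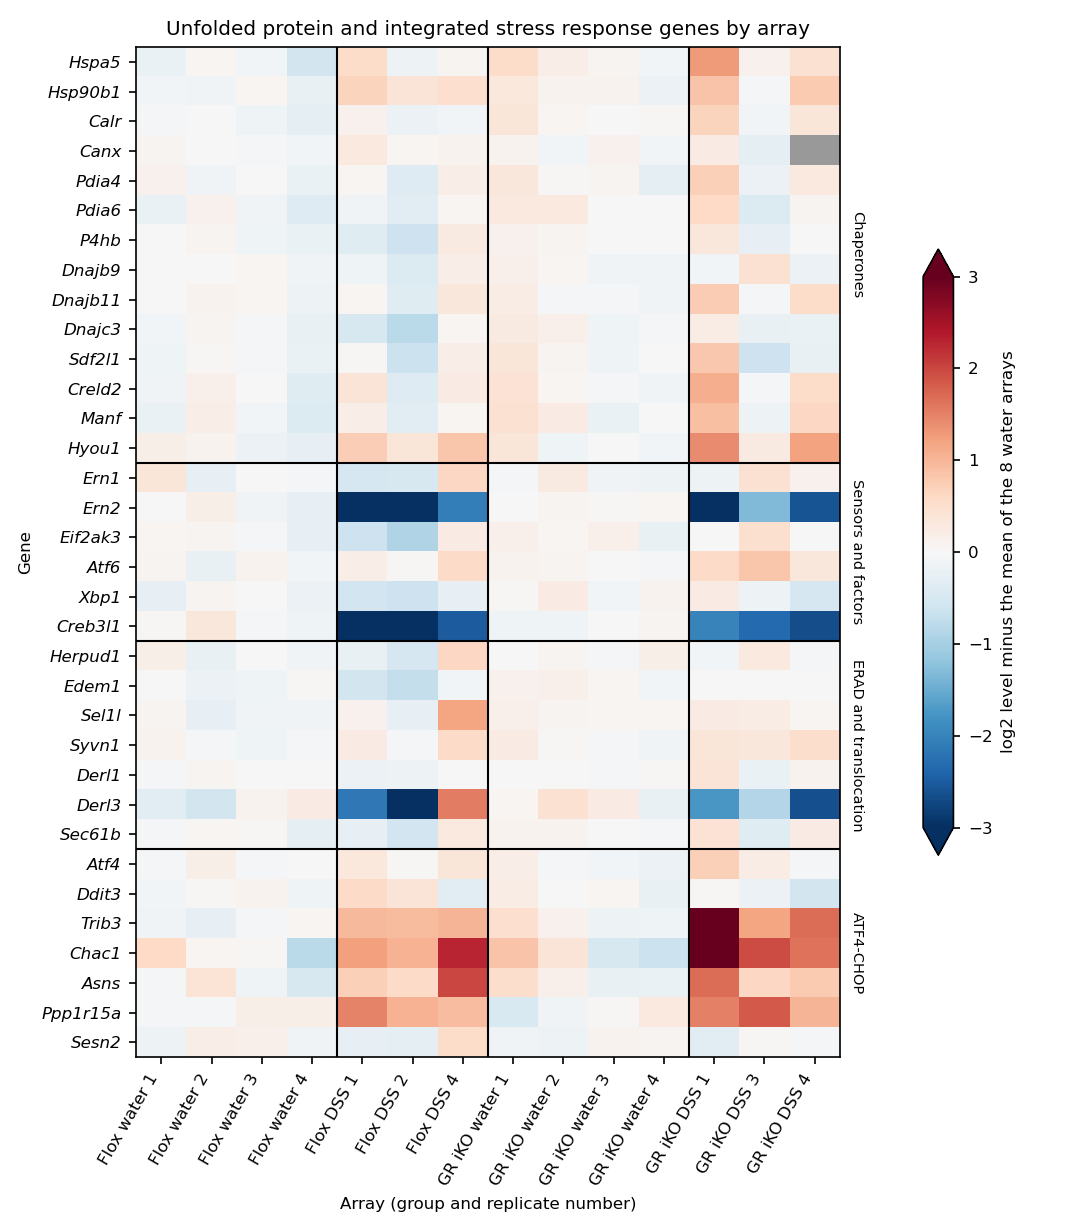
Level of each of the 34 members on each of the 14 arrays, relative to the mean of that gene over the 8 water arrays, in log2 units on the 75th percentile scale (colour). Genes are rows grouped by list and arrays are columns grouped by genotype and treatment. Ern2 and Creb3l1 are low on all 6 DSS arrays, Trib3, Chac1, Asns and Ppp1r15a are high, and most chaperone rows stay close to water except on GR iKO DSS replicate 1. On the spike-in scale the means of Trib3, Chac1, Asns and Ppp1r15a are lower with DSS in Flox.

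Few chaperones and folding factors of the ER passed the test. Of 14 measured, Hsp90b1 and Hyou1 (14.3%) rose with DSS in Flox and Hyou1 (7.14%) in GR iKO, and no chaperone was called lower. Of all probes, 21.8% were called higher in Flox and 19.0% in GR iKO. The median change was 0.04 in Flox and 0.22 in GR iKO, against −0.09 and −0.02 for all probes, and 9 of 14 changes were positive in each genotype. The changes ran from −0.34 (Dnajc3) to 0.69 (Hyou1) in Flox and from −0.13 (Dnajc3) to 0.93 (Hyou1) in GR iKO. On the spike-in scale the medians were −2.31 and −0.72, which is 0.13 and 0.26 above the median of all probes. The scales differ by a constant per array, so apart from missing values this distance is set by construction and is no separate check.

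Hspa5 encodes BiP, the Hsp70 chaperone that binds unfolded chains and keeps the sensors inactive. Its levels were 5.37, 5.63, 5.49 and 5.03 in Flox water and 6.12, 5.42 and 5.65 in Flox DSS. In GR iKO they were 6.12, 5.77, 5.66 and 5.50 on water and 6.84, 5.71 and 6.03 on DSS. Water and DSS arrays overlapped in both genotypes. The difference was 0.35 in Flox (95% interval −0.28 to 0.98, adjusted p = 0.345, limma) and 0.43 in GR iKO (−0.21 to 1.06, adjusted p = 0.273), so a rise of about 2-fold could not be told from none.

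Hyou1, an Hsp110-type exchange factor that works with BiP and is induced by low oxygen as well as by ER stress, was the chaperone with the largest change. Its levels were 1.54, 1.48, 1.20 and 1.13 in Flox water and 2.12, 1.74 and 2.21 in Flox DSS. Those of GR iKO were 1.74, 1.24, 1.39 and 1.29 on water and 2.80, 1.65 and 2.59 on DSS. In Flox all DSS arrays lay above all water arrays, while in GR iKO replicate 3 on DSS lay below water replicate 1. Hyou1 rose by 0.69 ± 0.26 (SE; 1.61-fold, adjusted p = 0.0466, limma) in Flox and by 0.93 ± 0.26 (1.91-fold, adjusted p = 0.014) in GR iKO. Without Flox DSS replicate 1 the adjusted p in Flox was 0.172, and without GR iKO DSS replicate 1 that in GR iKO was 0.081. On the spike-in scale the changes were −1.66 and −0.03.

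Hsp90b1 encodes GRP94, the Hsp90 of the ER. Its levels were 5.75, 5.72, 5.87 and 5.61 in Flox water and 6.50, 6.21 and 6.34 in Flox DSS. In GR iKO they were 6.13, 5.92, 5.94 and 5.66 on water and 6.68, 5.77 and 6.60 on DSS. The Flox groups did not overlap and those of GR iKO did. Hsp90b1 rose by 0.61 ± 0.21 (SE; 1.53-fold, adjusted p = 0.0279, limma) in Flox, and its difference in GR iKO was 0.44 (adjusted p = 0.115). A second Hsp90b1 probe gave 0.02 in Flox (adjusted p = 0.963), the Flox call was lost without any 1 of the 3 Flox DSS arrays (adjusted p up to 0.146), and on the spike-in scale the change was −1.74.

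The other 11 chaperones were called in neither genotype. They include the lectin chaperones Calr (0.07 in Flox and 0.20 in GR iKO) and Canx (0.17 and −0.02), and the disulfide isomerases Pdia4 (−0.00 and 0.24), Pdia6 (0.01 and −0.05) and P4hb (−0.17 and −0.04). The J-domain co-chaperones Dnajb9 (−0.11 and 0.06), Dnajb11 (0.02 and 0.42) and Dnajc3 (−0.34 and −0.13) split in sign in Flox. Sdf2l1, a partner of Dnajb11, differed by −0.05 and −0.10, while the small ER stress-induced secreted factors Creld2 and Manf differed by 0.16 and 0.45, and by 0.10 and 0.33. Canx lacked a value on GR iKO DSS replicate 4, whose spot was flagged, and was fitted without it. The 7 chaperones with an ERSE match had a median change of 0.16 in Flox and 0.20 in GR iKO. The other 7 had −0.00 and 0.24, and of these Hyou1 and Manf had no window to search. A link between the element and the changes was not tested.

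A single array stood out in this list. GR iKO DSS replicate 1 held the highest level of all 14 arrays for 11 of the 14 chaperones. The mean of the list relative to water was 0.70 on that array, against −0.11 and 0.33 on the other GR iKO DSS arrays and 0.15, −0.27 and 0.22 on the Flox DSS arrays. Without GR iKO DSS replicate 3, Hsp90b1 (adjusted p = 0.0128) and Dnajb11 (adjusted p = 0.0288) were also called in GR iKO.

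**Figure D2:**
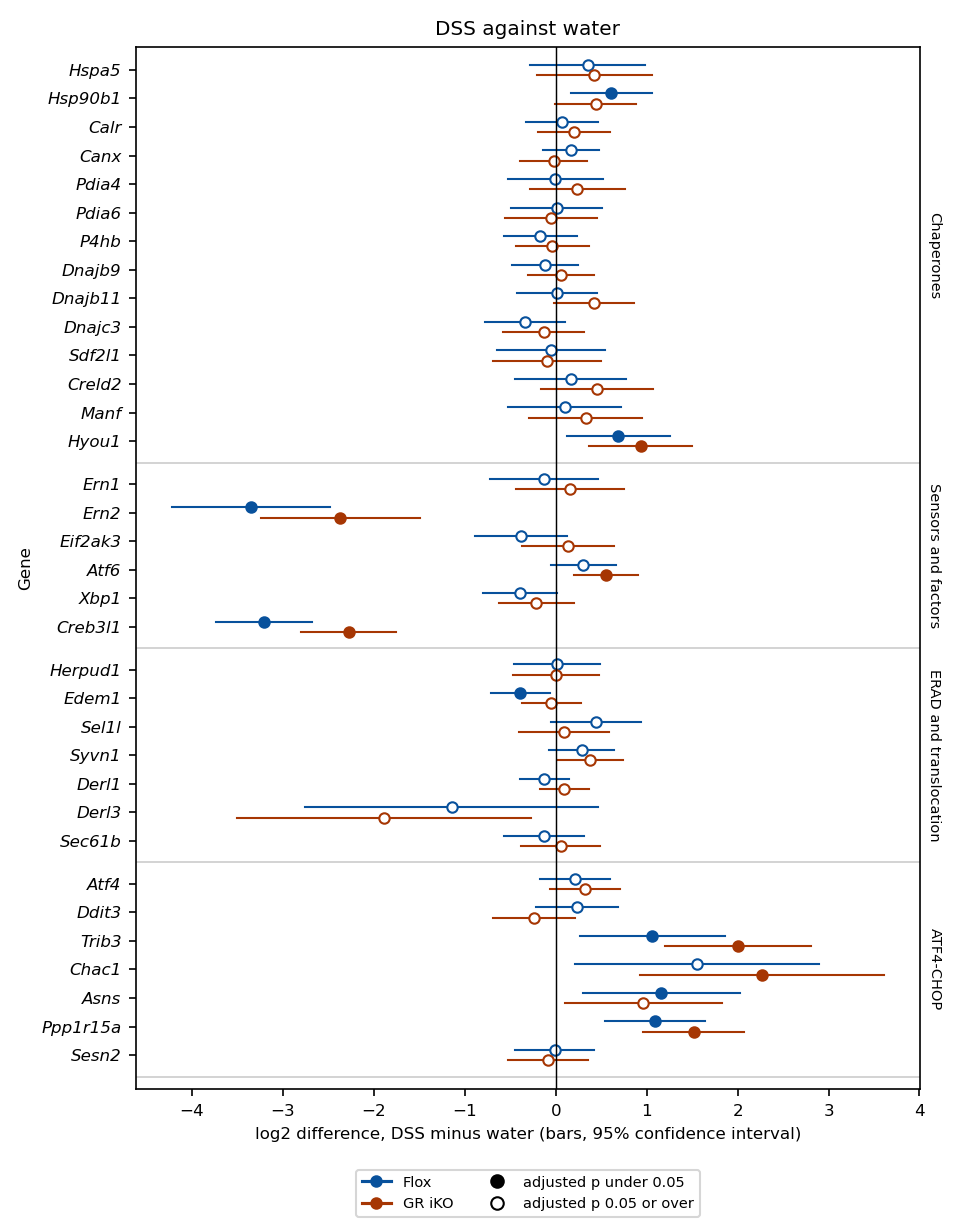
Change with DSS of each member in Flox and in GR iKO, in log2 units on the 75th percentile scale, as points with 95% confidence intervals. Filled points passed an adjusted p under 0.05. Chaperones lie within 1 unit of 0, Ern2 and Creb3l1 lie between −2 and −4, and Trib3, Chac1, Asns and Ppp1r15a lie near 1 to 2. On the spike-in scale all points would lie lower, with medians of the 34 members at −2.33 in Flox and −0.81 in GR iKO.

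Among the 6 sensors and factors, Ern2 and Creb3l1 fell steeply in both genotypes, Atf6 rose in GR iKO, and Ern1, Eif2ak3 and Xbp1 were not called. Ern2 encodes IRE1β, the form of IRE1 found in intestinal and airway epithelium and known in goblet cells. Its levels were 1.61, 1.79, 1.50 and 1.35 in Flox water and −2.59, −2.30 and −0.48 in Flox DSS. Those of GR iKO were 1.60, 1.69, 1.65 and 1.66 on water and −1.47, 0.29 and −0.98 on DSS. Every DSS array lay below every water array, and the DSS arrays spread far more widely than the water arrays. Ern2 fell by 3.35 on the log2 scale in Flox (SE 0.40, 10.2-fold, adjusted p = 4.73e-05, limma) and fell by 2.37 in GR iKO (SE 0.40, 5.16-fold, adjusted p = 0.000774). Ern1, the IRE1α gene expressed in most cells, differed by −0.13 in Flox and 0.16 in GR iKO and was not called.

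Creb3l1 encodes OASIS, a membrane-bound factor cleaved like ATF6 and known from goblet cell maturation and bone matrix secretion. Its levels were −0.47, −0.15, −0.56 and −0.64 in Flox water and −3.83, −4.17 and −2.99 in Flox DSS. In GR iKO they were −0.63, −0.64, −0.52 and −0.41 on water and −2.50, −2.83 and −3.15 on DSS. The groups were more than 1 unit apart in both genotypes. Creb3l1 fell by 3.21 on the log2 scale in Flox (SE 0.24, 9.25-fold, adjusted p = 3.42e-06, limma) and fell by 2.28 in GR iKO (SE 0.24, 4.84-fold, adjusted p = 3.69e-05). The Ern2 and Creb3l1 calls held under all 26 alternatives in both genotypes, spike-in scaling included.

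Atf6, the cleaved sensor itself, was at 0.98, 0.68, 1.01 and 0.81 in Flox water and at 1.11, 0.94 and 1.47 in Flox DSS. In GR iKO it was at 1.01, 0.98, 0.88 and 0.84 on water and at 1.47, 1.73 and 1.24 on DSS, with no overlap. Atf6 rose by 0.55 ± 0.16 (SE; 1.47-fold, adjusted p = 0.0183, limma) in GR iKO, and the difference in Flox was 0.30 (adjusted p = 0.146). A second Atf6 probe was also called higher in GR iKO (0.47, adjusted p = 0.0249) and gave −0.03 in Flox. The call was lost without GR iKO DSS replicate 3 (adjusted p = 0.0931), and the change was −0.41 on the spike-in scale. Eif2ak3, the gene of PERK, differed by −0.38 in Flox and 0.13 in GR iKO, and Xbp1, the target of IRE1 splicing, by −0.40 (adjusted p = 0.103) and −0.21. Without Flox DSS replicate 4, Eif2ak3 was called lower in Flox (adjusted p = 0.0168).

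The genes of ERAD and translocation had a median change of −0.12 in Flox and 0.05 in GR iKO. Of the 7 genes, 1 passed the test in Flox and 0 in GR iKO, where 47.2% and 38.8% of all probes did. Edem1, which takes misfolded glycoproteins out of the folding cycle, was at 2.16, 1.99, 2.04 and 2.20 in Flox water and at 1.61, 1.44 and 2.08 in Flox DSS. In GR iKO it was at 2.29, 2.31, 2.21 and 2.08 on water and at 2.18, 2.17 and 2.17 on DSS. Flox DSS replicate 4 lay among the water arrays. Edem1 fell by 0.39 on the log2 scale in Flox (SE 0.15, adjusted p = 0.0474, limma) and differed by −0.05 in GR iKO. The probes of Edem1 disagreed, since one further probe was lower in Flox (−0.92, adjusted p = 0.021) and another higher (0.68), and the call was lost without any 1 of 9 of the 14 arrays, up to an adjusted p of 0.296 without Flox DSS replicate 2.

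Herpud1, which anchors the degradation complex, differed by 0.01 in Flox and 0.00 in GR iKO. The ubiquitin ligase Syvn1 (0.28 and 0.38, adjusted p = 0.17 and 0.082) and its adaptor Sel1l (0.44 and 0.09) were not called. The channel subunit Sec61b of the translocon differed by −0.13 and 0.05. Derl1, a membrane factor of the retrotranslocation channel, differed by −0.12 and 0.09 on the probe used, while 2 of its 3 further probes were called lower in Flox (−0.71, adjusted p = 0.00592, and −0.55, adjusted p = 0.0206). The last of these was also called lower in GR iKO (−0.56, adjusted p = 0.0218), so the probes of Derl1 disagreed.

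Derl3, a Derlin abundant in secretory cells, is described because its arrays spread most widely, a choice made after its values were seen. Its levels were −0.02, −0.24, 0.42 and 0.57 in Flox water, and −1.83, −2.91 and 1.85 in Flox DSS. Those of GR iKO were 0.37, 0.78, 0.57 and 0.10 on water and −1.42, −0.55 and −2.33 on DSS. In GR iKO all DSS arrays lay below all water arrays, whereas Flox DSS replicate 4 held the highest level of all 14. The difference was −1.15 in Flox (adjusted p = 0.225, limma) and −1.89 in GR iKO (adjusted p = 0.0618). Without Flox DSS replicate 4 the adjusted p was 0.0014 in Flox and 0.00358 in GR iKO. On that array Herpud1, Sel1l and Syvn1 were also at their highest of the 6 DSS arrays.

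In the ATF4-CHOP list, 3 of 7 genes (42.9%) rose in each genotype and none fell, where 21.8% of all probes were called higher in Flox and 19.0% in GR iKO. Among 35 other ATF4 targets, 4 rose and 7 fell in Flox (median change 0.06), and 11 rose and 4 fell in GR iKO (median change 0.49). The median change of the ATF4-CHOP list was 1.06 in Flox and 0.96 in GR iKO, which is 1.15 and 0.99 above the median of all probes. The scales differ by a constant per array, so the distance is the same on the spike-in scale by construction and is no separate check. The list medians themselves were −1.29 and 0.01 there. The genes of the ATF4-CHOP list that rose act downstream, in feedback, glutathione breakdown and asparagine synthesis, while the factors Atf4 and Ddit3 did not pass the test.

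Atf4, whose protein is controlled mainly by translation, was at 1.36, 1.57, 1.37 and 1.40 in Flox water and at 1.71, 1.45 and 1.77 in Flox DSS. In GR iKO it was at 1.61, 1.37, 1.32 and 1.23 on water and at 2.12, 1.62 and 1.37 on DSS. The groups overlapped in both genotypes, with differences of 0.22 (95% interval −0.17 to 0.60, adjusted p = 0.342, limma) and 0.32 (−0.06 to 0.71, adjusted p = 0.172).

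Ddit3 encodes CHOP, the factor tied to cell death under lasting ER stress. Its levels were −0.03, 0.07, 0.14 and −0.09 in Flox water and 0.62, 0.41 and −0.27 in Flox DSS. In GR iKO they were 0.27, 0.04, 0.10 and −0.19 on water and 0.08, −0.13 and −0.50 on DSS. In Flox the DSS arrays lay on both sides of the water arrays, and in GR iKO replicate 4 on DSS lay below all water arrays while the other DSS arrays lay among them. The differences were 0.23 (−0.22 to 0.69, adjusted p = 0.385, limma) and −0.24 (−0.69 to 0.22, adjusted p = 0.4), so neither interval reaches 2-fold.

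Ppp1r15a encodes GADD34, which brings a phosphatase to eIF2α and so ends the translation block. Its levels were −0.67, −0.70, −0.46 and −0.46 in Flox water and 0.86, 0.41 and 0.28 in Flox DSS. Those of GR iKO were −1.10, −0.75, −0.60 and −0.35 on water and 0.87, 1.20 and 0.37 on DSS. No DSS array overlapped the water arrays in either genotype. Ppp1r15a rose by 1.09 ± 0.25 (SE; 2.13-fold, adjusted p = 0.00391, limma) in Flox and by 1.52 ± 0.25 (2.86-fold, adjusted p = 0.000721) in GR iKO, and kept its call without any 1 array. On the spike-in scale the Flox change was −1.26, and the rise in GR iKO was not called.

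Trib3, a pseudokinase induced by ATF4 and CHOP that restrains them, was at −2.65, −2.81, −2.60 and −2.50 in Flox water and at −1.58, −1.61 and −1.54 in Flox DSS. In GR iKO it was at −2.06, −2.42, −2.70 and −2.68 on water and at 0.86, −1.36 and −0.88 on DSS. The Flox DSS arrays lay within 0.1 of each other, and GR iKO DSS replicate 1 stood far above the rest. Trib3 rose by 1.06 ± 0.37 (SE; 2.09-fold, adjusted p = 0.0311, limma) in Flox and by 2.00 ± 0.37 (4.01-fold, adjusted p = 0.00124) in GR iKO. The Flox call was lost without Flox water replicate 2 or any 1 Flox DSS array (adjusted p up to 0.104). It was also lost on a second probe (0.67, adjusted p = 0.231). On the spike-in scale the Flox change was −1.29, and the rise in GR iKO was not called.

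Chac1, which degrades glutathione, was at −0.78, −1.31, −1.34 and −2.17 in Flox water and at −0.15, −0.33 and 0.92 in Flox DSS. In GR iKO it was at −0.51, −0.99, −1.85 and −2.02 on water and at 1.95, 0.58 and 0.25 on DSS. All DSS arrays lay above all water arrays of their genotype, with wide spreads in every group. Chac1 rose by 2.27 ± 0.62 (SE; 4.82-fold, adjusted p = 0.0119, limma) in GR iKO. In Flox the difference was 1.55 (95% interval 0.21 to 2.89, adjusted p = 0.0555). The call in GR iKO was lost without GR iKO DSS replicate 1 (adjusted p = 0.0663) and under spike-in scaling. Asns, asparagine synthetase, rose by 1.16 ± 0.40 in Flox (2.24-fold, adjusted p = 0.0292) and differed by 0.96 (adjusted p = 0.0727) in GR iKO, and its Flox call was lost without Flox DSS replicate 1 or 4 (adjusted p up to 0.182) and turned to −1.19 on the spike-in scale. Sesn2, a stress-induced inhibitor of mTORC1 signalling, differed by −0.01 and −0.09.

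**Figure D3:**
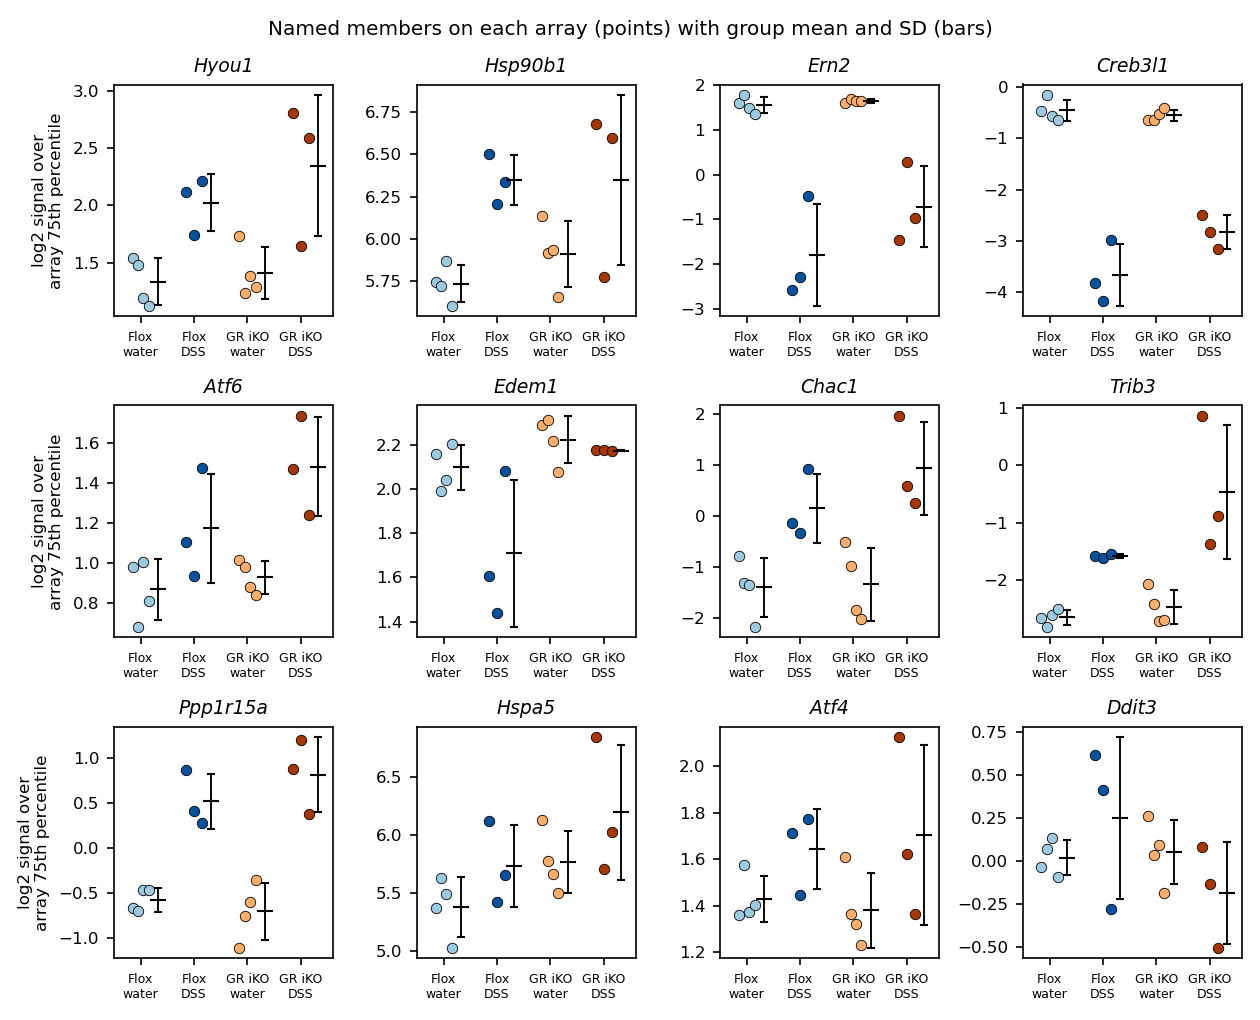
Levels of the 12 members described by array, as log2 processed signal minus the 75th percentile of the array, with each point an array, the line the group mean and the bar the SD (n = 4 on water, n = 3 on DSS). Panels have their own vertical ranges, and levels are not comparable between genes. Ern2, Creb3l1 and Ppp1r15a separate DSS from water in both genotypes, while Hspa5, Atf4 and Ddit3 overlap.

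The markers of other cell types moved in the same colons. The marker counts here and below stand beside all probes, of which 21.8% were called higher and 25.4% lower in Flox. In GR iKO these shares were 19.0% and 19.7%. Of 10 goblet cell markers, Agr2, Atoh1, Fcgbp and Spdef were called lower with DSS in Flox and Atoh1 in GR iKO. The log2 change of Atoh1 was −3.30 (adjusted p = 0.000747, limma) in Flox and −2.54 (adjusted p = 0.0052) in GR iKO, and that of Spdef was −2.35 (adjusted p = 0.00412) and −0.64 (adjusted p = 0.39). Muc2, the main gel-forming mucin, differed by −0.94 and −0.67 and was not called. The summed level of the goblet list, as a mean relative to water, ran from −2.22 to 0.15 in Flox DSS and from −1.60 to 0.17 in GR iKO DSS. Flox DSS replicate 4 and GR iKO DSS replicate 3 were highest, as they were for Ern2. Creb3l1 was also highest on replicate 4 in Flox DSS, but in GR iKO DSS it was highest on replicate 1 (−2.50), where the goblet list was lowest. The part of goblet cells in the Ern2 and Creb3l1 changes was not tested.

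Of 11 plasma and B cell markers, 8 were called lower and 1 higher in Flox, and 4 lower and 1 higher in GR iKO. The log2 change of Jchain was −3.80 and −2.69, and that of Mzb1, an ER partner of GRP94 in antibody-making cells, was −4.50 and −2.60, all called. The list stood at −3.42, −2.84 and −1.08 on the Flox DSS arrays and at −0.66, −0.18 and −2.30 on those of GR iKO. Over the GR iKO DSS arrays Derl3 had the same order as this list, and in Flox both were highest on DSS replicate 4. The other Flox DSS arrays ran in opposite orders, and on replicate 4 Derl3 lay above every water array while the list lay below water. The part of plasma cells in the Derl3 values was not tested. Of 11 epithelial markers, 4 were called lower and 1 higher in Flox, and 1 in each direction in GR iKO, with Epcam at −0.69 (adjusted p = 0.00748) and −0.08 (adjusted p = 0.748).

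Neutrophil markers rose for 7 of 8 genes in Flox and 8 of 8 in GR iKO, with list means of 4.49 to 5.47 and 6.57 to 8.57 above water. These sizes are not exact, since on water arrays 3 of the 8 genes were never well above background, and 1 was well above it on all 14 arrays. Of 8 macrophage markers, 5 rose in Flox and 6 in GR iKO, with list means of 0.82 to 1.70 and 0.87 to 1.77. Over the GR iKO DSS arrays the macrophage list had the order of the ATF4-CHOP list, and over the Flox DSS arrays the opposite order. All 6 fibroblast markers rose in both genotypes. Of 6 smooth muscle markers, 5 were called higher in Flox and 0 in GR iKO, with list means of 0.93 to 1.73 and −0.73 to 0.53. None of the 6 was called between genotypes on DSS (lowest adjusted p = 0.108, limma) or in the interaction (lowest adjusted p = 0.198). The part of these cell types in the rise of Trib3, Chac1, Asns and Ppp1r15a was not tested.

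**Figure D4:**
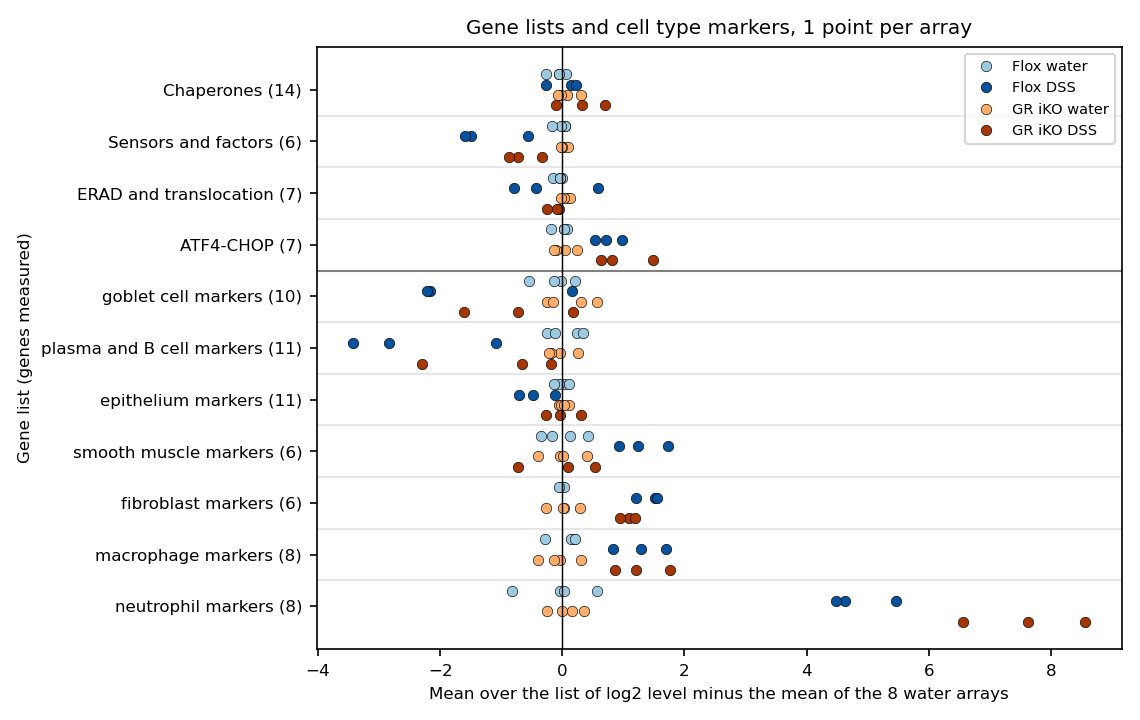
Mean level of each member list and of each cell type marker list on each array, in log2 units relative to the mean of the 8 water arrays. Points are arrays, coloured by group. The ATF4-CHOP list lies at 0.54 to 1.48 on DSS arrays against −0.18 to 0.25 on water, while the chaperone list overlaps water. Neutrophil distances are not exact, since on water arrays 3 of the 8 genes were never well above background. The scale is that of the 75th percentile, and on the spike-in scale the ATF4-CHOP median change is −1.29 in Flox and 0.01 in GR iKO.

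To ask whether loss of epithelial GR altered the pathways without injury, GR iKO and Flox were compared on water. None of the 34 members was called by limma, where 7 of all probes (0.0237%) were, and 1 member had an unadjusted p under 0.05. That member was Hspa5, higher in GR iKO by 0.39 (95% interval 0.01 to 0.77, unadjusted p = 0.0466, adjusted p = 1). Differences of all 14 chaperones were positive, with a median of 0.14 against −0.01 for all probes. On the spike-in scale their median was −0.02 against −0.17 for all probes, a distance set by construction and no separate check. The mean of the chaperone list relative to water was 0.31 on GR iKO water replicate 1 and 0.08, −0.02 and −0.07 on replicates 2, 3 and 4. On Flox water replicates 1 to 4 it was −0.05, 0.06, −0.05 and −0.26, so the list means of the genotypes overlapped. Calr was the only member whose groups did not overlap, where 2.26% of all probes did not. Its lowest GR iKO water level was 4.128 and its highest Flox water level 4.125. A second Calr probe gave a difference of 0.01 with overlapping groups. Ern2, Creb3l1 and the ATF4-CHOP genes had overlapping groups, and the ATF4-CHOP median was 0.03.

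On DSS, none of the members was called between genotypes by limma, where 6 of all probes (0.0203%) were. At an unadjusted p under 0.05 there were 3 members and 5206 probes. Median differences were 0.32 for chaperones, 0.47 for sensors, 0.16 for ERAD and 0.06 for ATF4-CHOP, against 0.03 for all probes, and 28 of 34 members had positive differences. All probes moved up by 1.25 at the median on the spike-in scale. Edem1 and Trib3 had groups that did not overlap, where 22.8% of all probes did not.

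On the probes that stood for the members, those nearest to a call on DSS were Creb3l1, Edem1 and Trib3. The second Atf6 probe was nearer (0.61, adjusted p = 0.138, groups not overlapping), while the first gave 0.31. Creb3l1 was higher by 0.84 in GR iKO (unadjusted p = 0.0189, adjusted p = 0.191), Ern2 by 1.07 (adjusted p = 0.306) and Edem1 by 0.46 (adjusted p = 0.232). Trib3 differed by 1.12 (adjusted p = 0.244), Hspa5 by 0.46 (adjusted p = 0.577) and Ddit3 by −0.44 (adjusted p = 0.435). Within the 2 slides that held both genotypes on DSS, Ern2 differed by 2.88 and −0.50 and Creb3l1 by 1.00 and −0.16, so neither kept a direction. Trib3 differed by 0.22 and 0.66 there. Without Flox DSS replicate 4, Creb3l1 (adjusted p = 0.0469) and Ern2 (adjusted p = 0.0487) were called higher in GR iKO. Of all 29523 probes, 383 were then called higher and 427 lower. With a weight for each array Creb3l1, Edem1 and Ern2 were called higher and Ddit3 lower, where 1557 of all probes were called higher and 1938 lower.

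**Figure D5:**
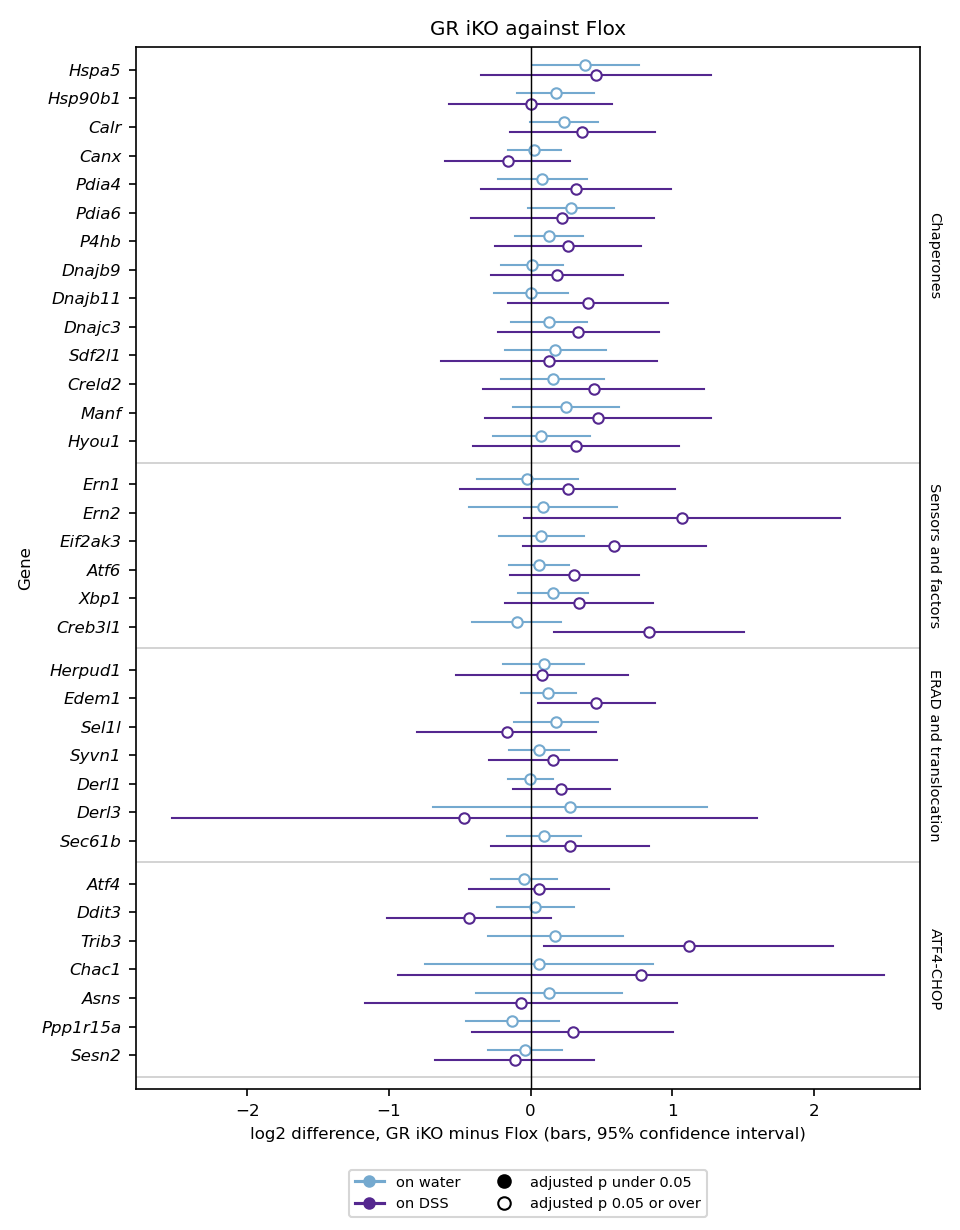
Difference of GR iKO from Flox for each member on water and on DSS, in log2 units on the 75th percentile scale, as points with 95% confidence intervals. No member passed an adjusted p under 0.05. On water, the 14 chaperones lie between 0.00 and 0.39. The median of all probes on water is −0.01 on this scale and −0.17 on the spike-in scale. On DSS the intervals are wider.

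The DSS response itself was compared between genotypes as the interaction, taken as the change in GR iKO less the change in Flox. None of the members was called by limma, and neither was any of all probes (0%), with 1 member and 4372 probes at an unadjusted p under 0.05. That member was Creb3l1, with a smaller fall in GR iKO by 0.93 (95% interval 0.19 to 1.68, unadjusted p = 0.0179, adjusted p = 0.24). Ern2 gave 0.98 (adjusted p = 0.45) and Trib3 0.94 (adjusted p = 0.428). Giving each array its own weight called Creb3l1, and spike-in scaling called 12 members, all higher. Of all 29523 probes, array weights called 885 higher and 1180 lower there, and spike-in scaling called 8059 higher and 0 lower.

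A further 100 genes of the same pathways were read for context. With DSS, 17 were called higher and 24 lower in Flox and 19 higher and 12 lower in GR iKO, with medians of −0.04 and 0.11. Of all probes, 21.8% were called higher and 25.4% lower in Flox and 19.0% and 19.7% in GR iKO. Of the 100 genes, 0 were called between genotypes or in the interaction. Among 19 other folding genes, 4 rose and 6 fell in Flox, and 1 rose and 3 fell in GR iKO. The disulfide isomerases Pdia5 (−2.29 and −2.10) and Txndc5 (−1.39 and −1.16), both abundant in secretory cells, fell in both genotypes. Among 12 other ERAD genes 2 rose and 2 fell in Flox and 1 fell in GR iKO, with the lectin gene Erlec1 at −0.47 and −0.60.

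Among 19 genes of translocation and glycosylation, 1 rose and 6 fell in Flox and 2 fell in GR iKO. Sec11c, a signal peptidase subunit, changed by −0.81 and −0.86 on the log2 scale. Among 15 other sensors and factors, 6 rose and 3 fell in Flox, and 7 rose and 2 fell in GR iKO. The OASIS relative Creb3l4 changed by −2.83 (adjusted p = 4.88e-05, limma) and −2.48 (adjusted p = 0.000195), whereas Creb3l3, a factor of lipid and acute phase genes, rose by 2.29 and 2.00. Among 35 other ATF4 targets 4 rose and 7 fell in Flox and 11 rose and 4 fell in GR iKO. Cebpb, also induced by inflammatory signals, rose by 3.18 (adjusted p = 1.49e-06) and 3.29 (adjusted p = 1.11e-06), and Cth, which makes cysteine, changed by −1.88 and −2.14. On the spike-in scale the background shift given above applies to these genes as well.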

How the data were processed

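Feature Extraction 12.0.0.7 was run by the authors, and the deposited scanner output holds a background-subtracted, detrended intensity per spot, not scaled between arrays. The deposited series table holds log2 values (r of at least 0.998 with log2 processed intensity of the same array). The submitters' processing notes also name Partek 6.6.

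Control spots and flagged spots were left out, and spots of a probe were averaged. From each log2 processed intensity the array's 75th percentile was subtracted. Testing needed a signal well above background on at least 3 of 14 arrays. Symbols came from RefSeq accessions matched without versions to a GRCm38.p6 gene table (28223 of 29245 probes). Group means were fitted with limma 3.58.1 (R 4.3.3) over all 14 arrays with weights by treatment (1.70 for water, 0.495 for DSS). Tests were two-sided, Benjamini-Hochberg adjusted over 29523 probes and called under 0.05. The number of arrays limits the precision.

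The members, lists and tests were chosen with earlier results of these data known. Full values were given for the 3 members per list with the largest mean change among those called with DSS, and for Hspa5, Ern2, Atf4 and Ddit3, and Derl3 was added after its values were seen. Of the other pathway genes, the 2 per list with the largest mean change among those called in both genotypes were named. Labels give 1 mouse per array and the groups. Slide, replicate number, normalization, background, filter and weights were varied in 26 alternatives. Normexp was run on median signals, a change made after seeing the data because the files hold no mean signal. On data simulated for the Flox DSS comparison, over 29523 probes with 200 changed, 148 were called, 128 of them truly changed, and 42% of 2-fold and 86% of 4-fold changes were recovered. The shares were 28% and 75% for the genotype comparison on DSS and 20% and 65% for the interaction. The setting differs from the data, where 47.2% of probes were called with DSS in Flox. The simulated shares therefore do not give the power of the tests of DSS against water.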

Additional observations from a re-analysis of the deposited data

Results flagged for a closer look

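A gap test of the highest and lowest array was run on the members in both groups of 4 arrays, 68 tests in all, and 2 exceeded Dixon's 95% critical value. Chance gives about 1 in 20. On GR iKO water replicate 1 the level of Calr was 4.48, where the other GR iKO water arrays held 4.13 to 4.16 (gap over range 0.897). On the same array Sel1l was at −0.06, where the others held −0.16 to −0.15 (gap over range 0.839). Groups of 3 arrays were not tested in this way.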

How the results depend on the processing

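The calls of Ern2 and Creb3l1 held under all 26 alternatives in both genotypes. Counts of members called moved most under a weight for each array and under spike-in scaling. A weight for each array gave 16 with DSS in Flox (7 higher, 9 lower), 4 between genotypes on DSS and 1 in the interaction. Of all probes it called 8271 higher and 10956 lower with DSS in Flox. Between genotypes on DSS it called 1557 higher and 1938 lower, and in the interaction 885 and 1180. Spike-in scaling gave 32 members in Flox (all lower) and 12 in the interaction. Of all probes it called 25132 lower and 211 higher in Flox, and 8059 higher in the interaction. In GR iKO every member called under spike-in scaling was lower, so the rises of Hyou1, Atf6, Ppp1r15a, Trib3 and Chac1 were not called there. Spike-in scaling turned the change of Hyou1 to −1.66 in Flox and −0.0252 in GR iKO, of Hsp90b1 in Flox to −1.74, of Atf6 in GR iKO to −0.41, of Trib3 in Flox to −1.29 and of Ppp1r15a in Flox to −1.26. The cause of these moves was not tested. Leaving out each array in turn gave 3 to 9 members in Flox, 5 to 9 in GR iKO, 0 on water, 0 to 2 on DSS (2 without Flox DSS replicate 4) and 0 in the interaction. The other alternatives gave 6 to 9 in Flox, 7 to 9 in GR iKO and 0 between genotypes and in the interaction. Without weights, 1900 of all probes were called higher and 2002 lower between genotypes on DSS, against 5 and 1 with weights by treatment. Normexp on median signals was chosen after seeing the data.

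With the replicate number as a block, 8 members were called in Flox, 7 in GR iKO and 0 in the genotype comparisons and the interaction. Same-numbered arrays correlated at over 0.1 in 9 of 18 pairs (−0.227 to 0.310). Some of these pairs also shared a slide, so number and slide cannot be fully told apart. The labels do not say that the numbers pair the mice, and the main model did not use them. These values do not settle whether they do.

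Of the values for named members, 753 kept direction and side of the threshold under an alternative, 44 lost the call, 17 gained it, 12 moved and 6 reversed. DSS arrays varied 3.11 times as much as water arrays at the median, and n = 3 limits what the genotype comparisons on DSS can show.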
